A study of Homo sapiens with 24 samples.

Results

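The P4-ATPase flippases and their subunit TMEM30A were followed as 9 genes, ATP8A1, ATP8B1, ATP8B2, ATP9A, ATP9B, ATP10D, ATP11A, ATP11B and TMEM30A, out of 25343 genes listed in each library. They were taken by name, as the family members to be described, and all 9 were matched. RNA was measured in HCT116 (a human colon cancer line) and A375 (a human melanoma line), as the parent line or as 1 clone per line made deficient in PTDSS2 (PTDSS2-KO#3 in HCT116 and PTDSS2-KO#54 in A375). Cells received the vehicle DMSO or 0.1 µM DS07551382, an inhibitor of PTDSS1, for 24 h. This gave 8 groups of 3 libraries, 24 in all. PTDSS1 and PTDSS2 are the 2 enzymes that make phosphatidylserine in human cells, and the study asked what blocking the first does to cells that lack the second. The parent lines carry both genes, and with 1 clone per line an effect of the knockout cannot be told apart from a difference of that clone.

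Flippases are ATP-driven pumps that move phospholipids from the outer or luminal leaflet of a membrane to the cytosolic leaflet. Most of them must pair with a CDC50 protein, of which TMEM30A is the widely expressed one, to leave the endoplasmic reticulum; ATP9A and ATP9B do not need it. The best known work of some members is to keep phosphatidylserine on the cytosolic side of the plasma membrane. Those members act on the lipid whose synthesis the study blocked, while others flip other lipids, such as phosphatidylcholine or glucosylceramide.

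Libraries held between 6211629 and 11688267 expected counts. PTDSS2 stood at 33.1 to 39.4 CPM (counts scaled to library size, not to gene length) in the 6 HCT116 parent libraries and 4.87 to 7.91 in the 6 clone libraries. In A375 it stood at 21.4 to 24.6 CPM in the parent and 0.724 to 1.91 in the clone, so PTDSS2 RNA was lower in every clone library, as labelled. EPCAM, an epithelial marker, lay between 282 and 460 CPM in HCT116, where 4 of 9 colon epithelial markers averaged at least 1 CPM and CDX1 was at 0 throughout. SOX10, a melanocyte lineage factor, lay between 316 and 451 CPM in A375, where 4 of 8 melanocyte markers averaged at least 1 CPM and TYR, the pigment enzyme tyrosinase, was at 0 throughout. These counts separate the lines little, since 2 of 9 colon markers reached that mean in A375 and 3 of 8 melanocyte markers in HCT116. EPCAM was at most 0.773 CPM in A375 and SOX10 at most 1.07 in HCT116. PMEL, a melanocyte marker, went the other way, with at most 4.87 CPM in HCT116 and 0.67 in A375. In such bulk libraries, fewer cells with an RNA and less of it per cell cannot be told apart.

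ATP10D and ATP8B2 had the widest changes with the inhibitor in the HCT116 clone and the A375 clone respectively, and the 250 bases before their RefSeq start sites (build GRCh38.p14) are shown so that their control regions can be read beside those values. ATP10D lies on the plus strand, with its window at chr4:47485025-47485274, and ATP8B2 on the plus strand, with the window of one of its starts at chr1:154328548-154328797. Capitals mark GGGCGG, the GC box bound by SP factors, on either strand.
ATP10D: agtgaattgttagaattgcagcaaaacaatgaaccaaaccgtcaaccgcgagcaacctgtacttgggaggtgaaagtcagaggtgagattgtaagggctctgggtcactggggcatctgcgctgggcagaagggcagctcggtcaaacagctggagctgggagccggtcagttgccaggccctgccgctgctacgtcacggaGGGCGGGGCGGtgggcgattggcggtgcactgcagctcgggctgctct
ATP8B2: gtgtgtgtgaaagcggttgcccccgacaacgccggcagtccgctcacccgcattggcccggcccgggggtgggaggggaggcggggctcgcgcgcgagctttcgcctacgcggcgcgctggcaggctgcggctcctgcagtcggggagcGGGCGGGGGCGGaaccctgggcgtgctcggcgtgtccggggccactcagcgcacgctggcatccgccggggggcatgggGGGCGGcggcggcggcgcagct

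The ATP10D window had a GC content of 60.0% with 14 CpG pairs, and the printed ATP8B2 window 78.0% with 36, against medians of 58.0% and 11 over 35116 such windows of all genes. The other ATP8B2 window, not printed, had 56.4% with 1 and held none of the motifs sought here. GGGCGG was present in 6 of the 7 windows matched for 6 of the 9 genes, and in 42.6% of all windows. CCAAT was present in 2 of the 7 windows, both of those printed, against 32.0% of all, and TGACG, the core of the cyclic AMP response element, in 3 against 21.2%. None of the 7 held TGATGNAAN (the ATF4 and CHOP element, in 3.1% of all windows), TCACNCCAC (a sterol element, 0.9%) or CACGTG (an E-box, 6.3%), and 1 held CCACG (the core of ATF6 and XBP1 elements, 33.5%). Both strands were searched, overlapping matches were counted, and a match describes letters and not a bound site.

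TMEM30A was the most abundant member in both lines in TPM, a transcript abundance corrected for library size and gene length that allows genes to be set side by side. In the HCT116 parent in DMSO it stood at 71.3 ± 0.667 TPM (SD, n = 3). ATP11A, a flippase of phosphatidylserine and phosphatidylethanolamine at the plasma membrane, followed at 26.0 ± 1.16. ATP11B, of endosomes and the trans-Golgi, at 21.1 ± 0.131 and ATP8B2, which flips phosphatidylcholine at the plasma membrane, at 20.3 ± 2.02 overlapped. Then came ATP9A at 11.4 ± 1.05, ATP8B1 (a phosphatidylcholine flippase mutated in inherited cholestasis) at 7.47 ± 0.0954, ATP9B at 5.49 ± 0.415, ATP10D at 3.17 ± 0.497 and ATP8A1, a phosphatidylserine flippase of the Golgi and endosomes, at 0.423 ± 0.124.

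In the A375 parent in DMSO the order of TPM was another. TMEM30A led with 68.7 ± 1.58 (SD, n = 3), ATP8B2 came second at 53.9 ± 1.01, and ATP11A at 22.0 ± 0.765 and ATP11B at 21.6 ± 1.08 overlapped. Below these stood ATP9A at 11.1 ± 0.862, ATP10D at 4.90 ± 0.100, ATP9B at 1.94 ± 0.236, ATP8A1 at 0.740 ± 0.0700 and ATP8B1 at 0.150 ± 0.128. Apart from these overlaps, members next to each other in either order had libraries that did not overlap. The 8 flippases among the members made up between 84.8% and 89.2% of the summed TPM of all 14 P4-ATPases listed, depending on the group.

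**Figure D1:**
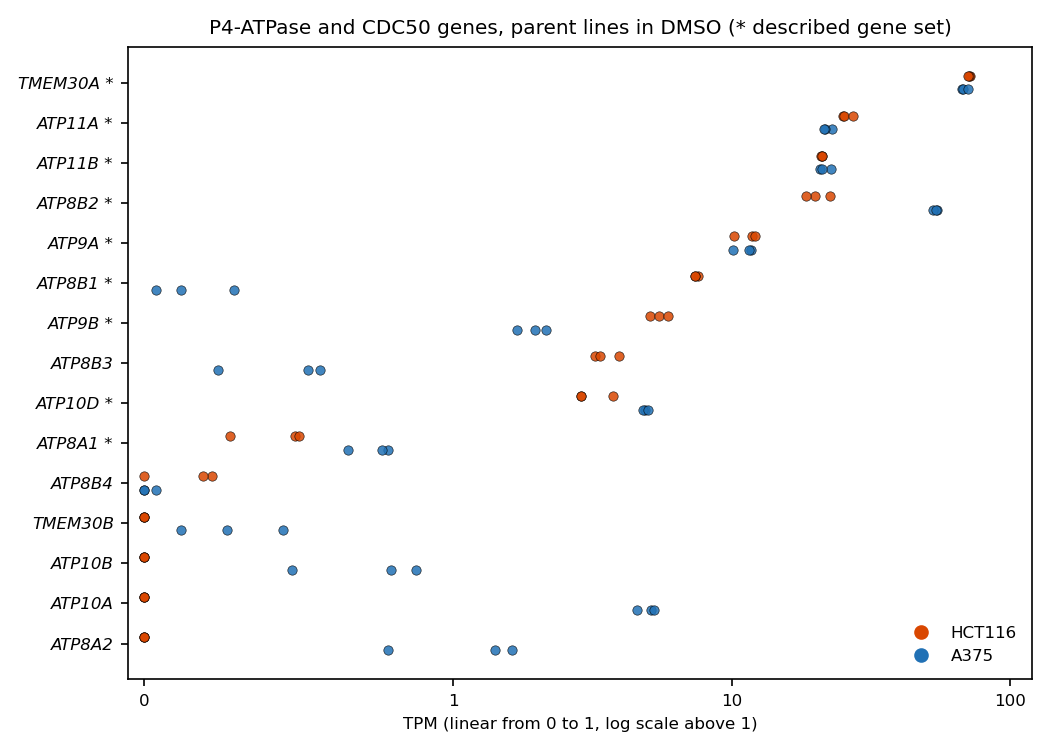
TPM of the 9 members and 6 other P4-ATPase and CDC50 genes in the parent lines in DMSO, 1 point per library and 3 per line, on an axis that is linear up to 1 and logarithmic above. TMEM30A sits highest in both lines, with means of 71.3 TPM in HCT116 and 68.7 in A375, and ATP8B1 averages 7.47 TPM in HCT116 and 0.150 in A375.

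Between the parents in DMSO, 6 of the 9 members differed (edgeR quasi-likelihood test, adjusted p under 0.05; 81.8% of all 14637 genes tested were called, 42.2% higher and 39.6% lower in A375). ATP8B1 was lower in A375 by a log2 difference of -5.50 ± 0.24 (SE), where the parent libraries in DMSO held 1 to 7 counts. It passed the filter on counts only through HCT116, where it is high, so its call among the 6 is not a test of the difference. Other fits put the value between -6.32 and -4.85. ATP8B2 was higher by 1.45 ± 0.06, ATP8A1 by 0.85 ± 0.29 and ATP10D by 0.68 ± 0.12, and ATP9B was lower (-1.44 ± 0.16), as was ATP11A (-0.18 ± 0.05). TMEM30A differed by 0.00 ± 0.04, with a 95% interval of -0.09 to 0.08, ATP9A by 0.02 ± 0.07 and ATP11B by 0.09 ± 0.05; these did not pass. A share of 6 in 9 is near the share of all genes that differed between these lines. The ATP8A1 call was lost without replicate 2 of the HCT116 parent in DMSO (0.63 ± 0.31, adjusted p = 0.05928).

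In the parent lines the inhibitor moved none of the members past the test. None of 9 were called in HCT116 and none of 8 in A375, where ATP8B1 had too few counts to be tested, and no member had an unadjusted p under 0.05 in either line. Of all genes, 0% were called in HCT116 and 0.104% in A375 (0.0372% higher and 0.0669% lower); DESeq2 and limma-voom called no member either. Log2 fold changes lay between -0.20 (ATP8A1) and 0.10 (ATP9B) in HCT116, and between -0.06 (TMEM30A) and 0.31 (ATP9B) in A375. The 95% interval of TMEM30A was -0.07 to 0.11 in HCT116 and -0.15 to 0.03 in A375. ATP8A1 had only 10 to 20 counts in an HCT116 parent library, and its change of -0.20 had an interval reaching 0.59.

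With the inhibitor in the HCT116 clone, ATP10D fell, and ATP9A, ATP8B2, ATP9B and ATP8B1 rose. That was 4 of 9 members up and 1 down, where 17.1% of all 13164 genes rose, 20.1% fell and 37.1% changed in all, and the median log2 fold change was 0.21 over the members and 0.00 over all genes. The count of 5 called was 3, with ATP8B1 and ATP9B lost, with no filter, limma-voom, DESeq2 or all 24 libraries, and without replicate 1 of the clone in DMSO or replicate 2 of the clone with inhibitor. In the A375 clone, 4 of the 8 members tested rose (ATP8B2, TMEM30A, ATP9A and ATP11B) and none fell, where 18.7% of 13455 genes rose, 18.8% fell and 37.5% changed in all. There the medians were 0.20 over the members and 0.01 over all genes. ATP8B2 and ATP9A were called up in both clones. The inhibitor's effect in the clone differed from that in the parent for 3 of 9 members in HCT116 (24.9% of all genes, 11.1% upward and 13.8% downward) and for 2 of 8 in A375 (27.3%, with 13.3% upward and 14% downward). The response of the A375 clone differed from that of the HCT116 clone for 3 of 9, 2 upward and 1 downward (19.7% of all genes, 10.9% upward and 8.75% downward). The 9 include ATP8B1, which had 0 to 6 counts in an A375 clone library and entered that fit only through HCT116. With so few members these shares are descriptions.

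**Figure D2:**
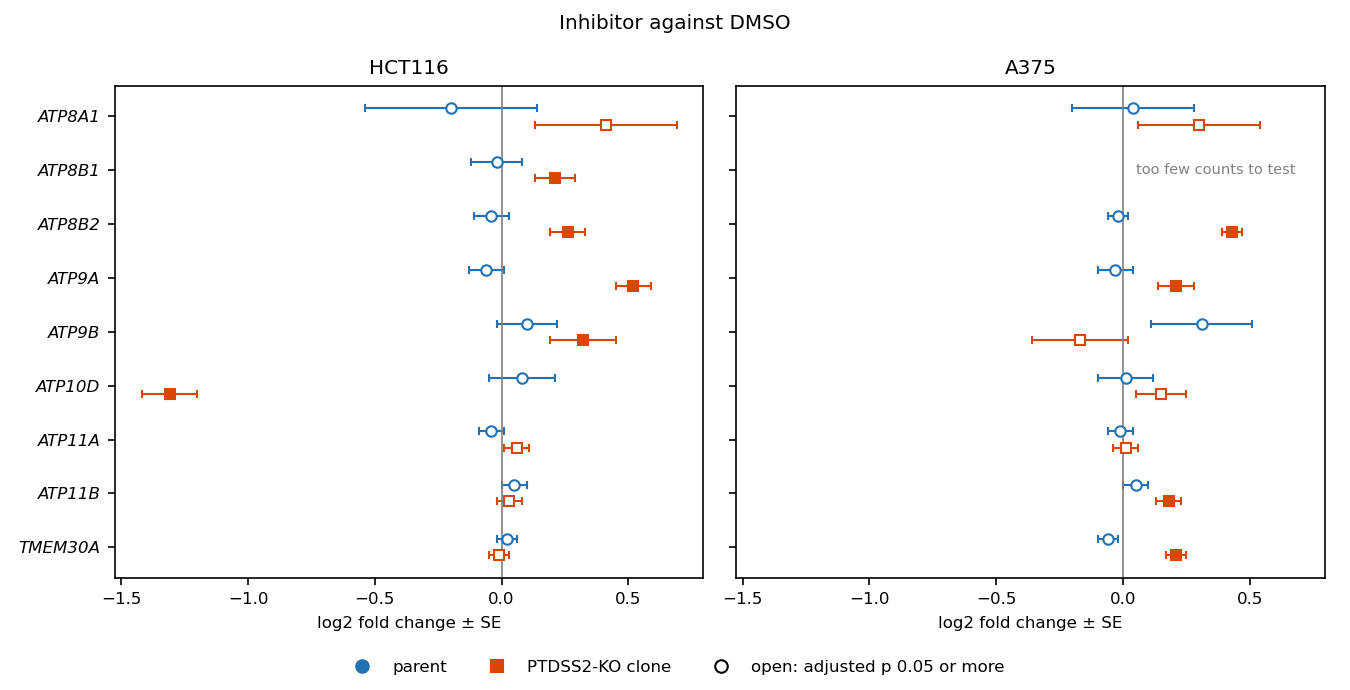
Log2 fold change with 0.1 µM DS07551382 against DMSO for each member, in the parent and the PTDSS2-KO clone of HCT116 and A375, with bars for the SE and open symbols where adjusted p was 0.05 or more. In the clones ATP10D stands at -1.31 in HCT116 and 0.15 in A375, while in both parents no member passes.

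The comparison of a clone in DMSO with its parent and that of the inhibitor with DMSO within the clone share the clone's DMSO libraries, so the values of both are given side by side and are not independent. In DMSO the HCT116 clone exceeded its parent in 3 of 9 members (ATP10D, ATP8B1 and TMEM30A) and none were lower, where 10.5% of all genes were higher and 10.8% lower (21.3% in all). The A375 clone was lower than its parent in 2 of 8 (ATP9A and ATP8B2) and higher in none, against 6.78% of all genes lower and 9.54% higher (16.3% in all); the count was 1, with ATP8B2 lost, without replicate 1 or 3 of the parent or replicate 1 of the clone. A comparison of clone and parent with the inhibitor in both was added after the data were seen. Its group means do not use the DMSO libraries, but its spread was estimated over all 12 libraries of the line. By that comparison 5 of 9 members were higher in the HCT116 clone, against 24.8% of all genes higher and 26% lower (50.8% in all). In A375 it was 3 of 8, against 20.8% higher and 20.1% lower (40.8% in all).

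**Figure D3:**
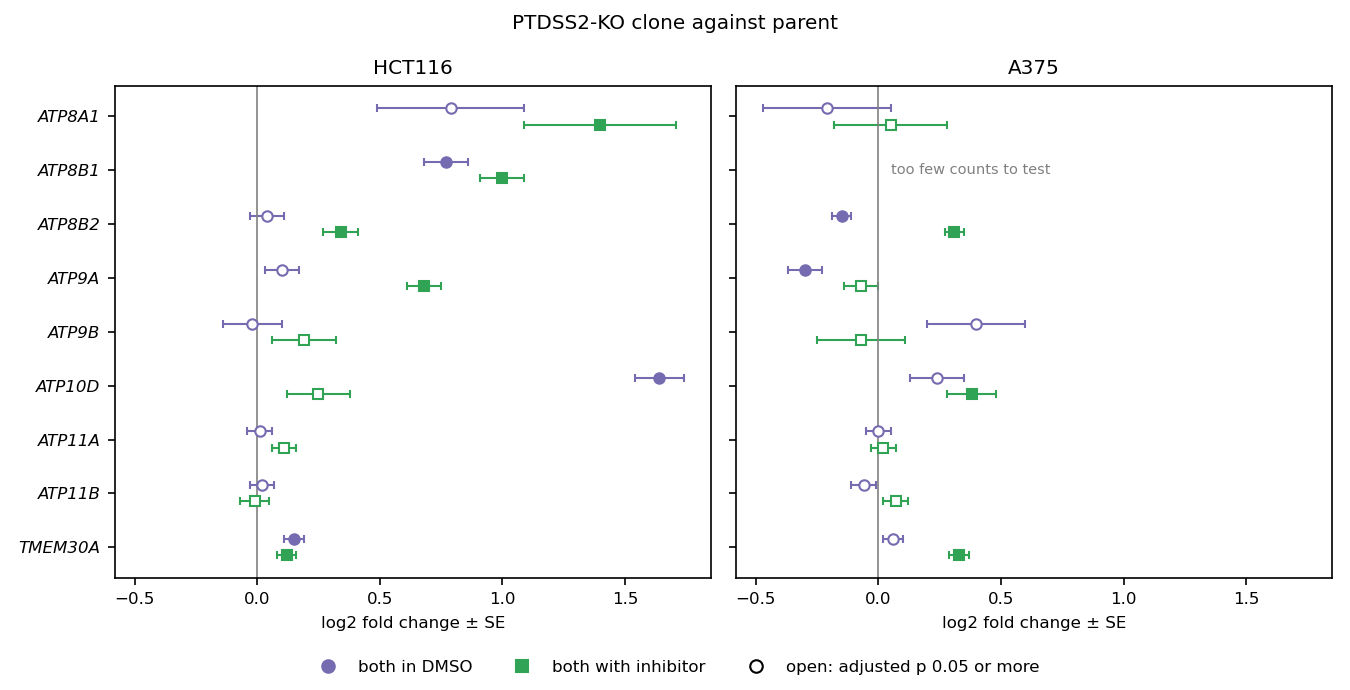
Log2 fold change of the PTDSS2-KO clone against its parent for each member, with both in DMSO or both with inhibitor, with bars for the SE. ATP10D in HCT116 stands at 1.64 in DMSO and 0.25 with the inhibitor, whereas ATP9A stands at 0.10 and 0.68.

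TMEM30A, the subunit, stood in HCT116 at 161, 160 and 156 CPM in the parent in DMSO and 165, 155 and 164 with the inhibitor. In the clone it was at 177, 178 and 175 CPM in DMSO and 178, 182 and 167 with the inhibitor. Both clone groups lay above the matching parent group with no overlap, by a log2 difference of 0.15 ± 0.04 in DMSO (adjusted p = 0.002795) and 0.12 ± 0.04 with the inhibitor (adjusted p = 0.009077), and the inhibitor changed it by -0.01 ± 0.04 in the clone (95% interval -0.10 to 0.08). In A375 it was at 149, 151 and 157 CPM in the parent in DMSO, 141, 151 and 145 with the inhibitor, and 161, 151 and 164 in the clone in DMSO. The clone with the inhibitor, at 180.2, 190.1 and 180.4 CPM, lay above every other A375 library. The log2 fold change there was 0.21 ± 0.04 (adjusted p = 8.66e-06), and the effect in the clone exceeded that in the parent by 0.27 ± 0.06 (adjusted p = 0.0001048). Between the clones the response was larger in A375 by 0.22 ± 0.06 (adjusted p = 0.001575). The call with the inhibitor in HCT116 was lost without replicate 2 of either group (adjusted p = 0.07218 without that of the parent and 0.07451 without that of the clone).

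Set against the 12 flippase genes other than ATP9A and ATP9B, the TMEM30A level was below their summed TPM in every library. The ratio was 0.747 ± 0.0234 (SD, n = 3) in the HCT116 parent in DMSO, 0.770 ± 0.0322 with the inhibitor, 0.743 ± 0.0205 in the clone in DMSO and 0.722 ± 0.0317 with the inhibitor. In A375 it was 0.576 ± 0.0198, 0.553 ± 0.0263, 0.649 ± 0.0330 and 0.621 ± 0.0244 in the same order. The 4 HCT116 groups lay between 0.686 and 0.798 by library and the 4 A375 groups between 0.526 and 0.669, so the lines did not overlap in this ratio of RNA levels. It does not measure protein or the number of complexes.

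ATP10D, a flippase of glucosylceramide, changed more than any other member when the HCT116 clone received the inhibitor. The parent stood at 12.2, 9.39 and 9.26 CPM in DMSO and 9.86, 12.1 and 10.7 with the inhibitor, and the clone at 31.5, 32.9 and 32.0 in DMSO and 12.6, 12.5 and 13.8 with the inhibitor. The 3 clone libraries in DMSO were thus high, and the inhibitor brought the clone to just above the parent's range. In DMSO the clone exceeded the parent 3.12-fold (log2 1.64 ± 0.10, adjusted p = 1.068e-21). The inhibitor then changed the clone by -1.31 ± 0.11 on the log2 scale (adjusted p = 8.685e-17), to 0.403 of its level, and by -1.39 ± 0.17 more than the parent (adjusted p = 3.942e-10). With the inhibitor in both, the clone exceeded the parent by 0.25 ± 0.13, which did not pass (adjusted p = 0.09614; 0.04731 without replicate 2 of the parent).

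In A375, ATP10D stood at 15.6, 15.5 and 16.1 CPM in the parent in DMSO and 16.5, 14.7 and 16.3 with the inhibitor. The clone stood at 19.2, 16.4 and 19.8 in DMSO and 22.5, 17.7 and 21.6 with the inhibitor, which overlap. The inhibitor changed the clone by 0.15 ± 0.10 (95% interval -0.07 to 0.37, adjusted p = 0.2404; 0.26 ± 0.10 and 0.04269 without replicate 2 with the inhibitor). The clone exceeded the parent by 0.24 ± 0.11 in DMSO (adjusted p = 0.1183) and by 0.38 ± 0.10 with the inhibitor (adjusted p = 0.001124). The response of the A375 clone exceeded that of the HCT116 clone by 1.46 ± 0.14 (adjusted p = 1.29e-14), the widest such difference of the 3 members that passed.

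**Figure D4:**
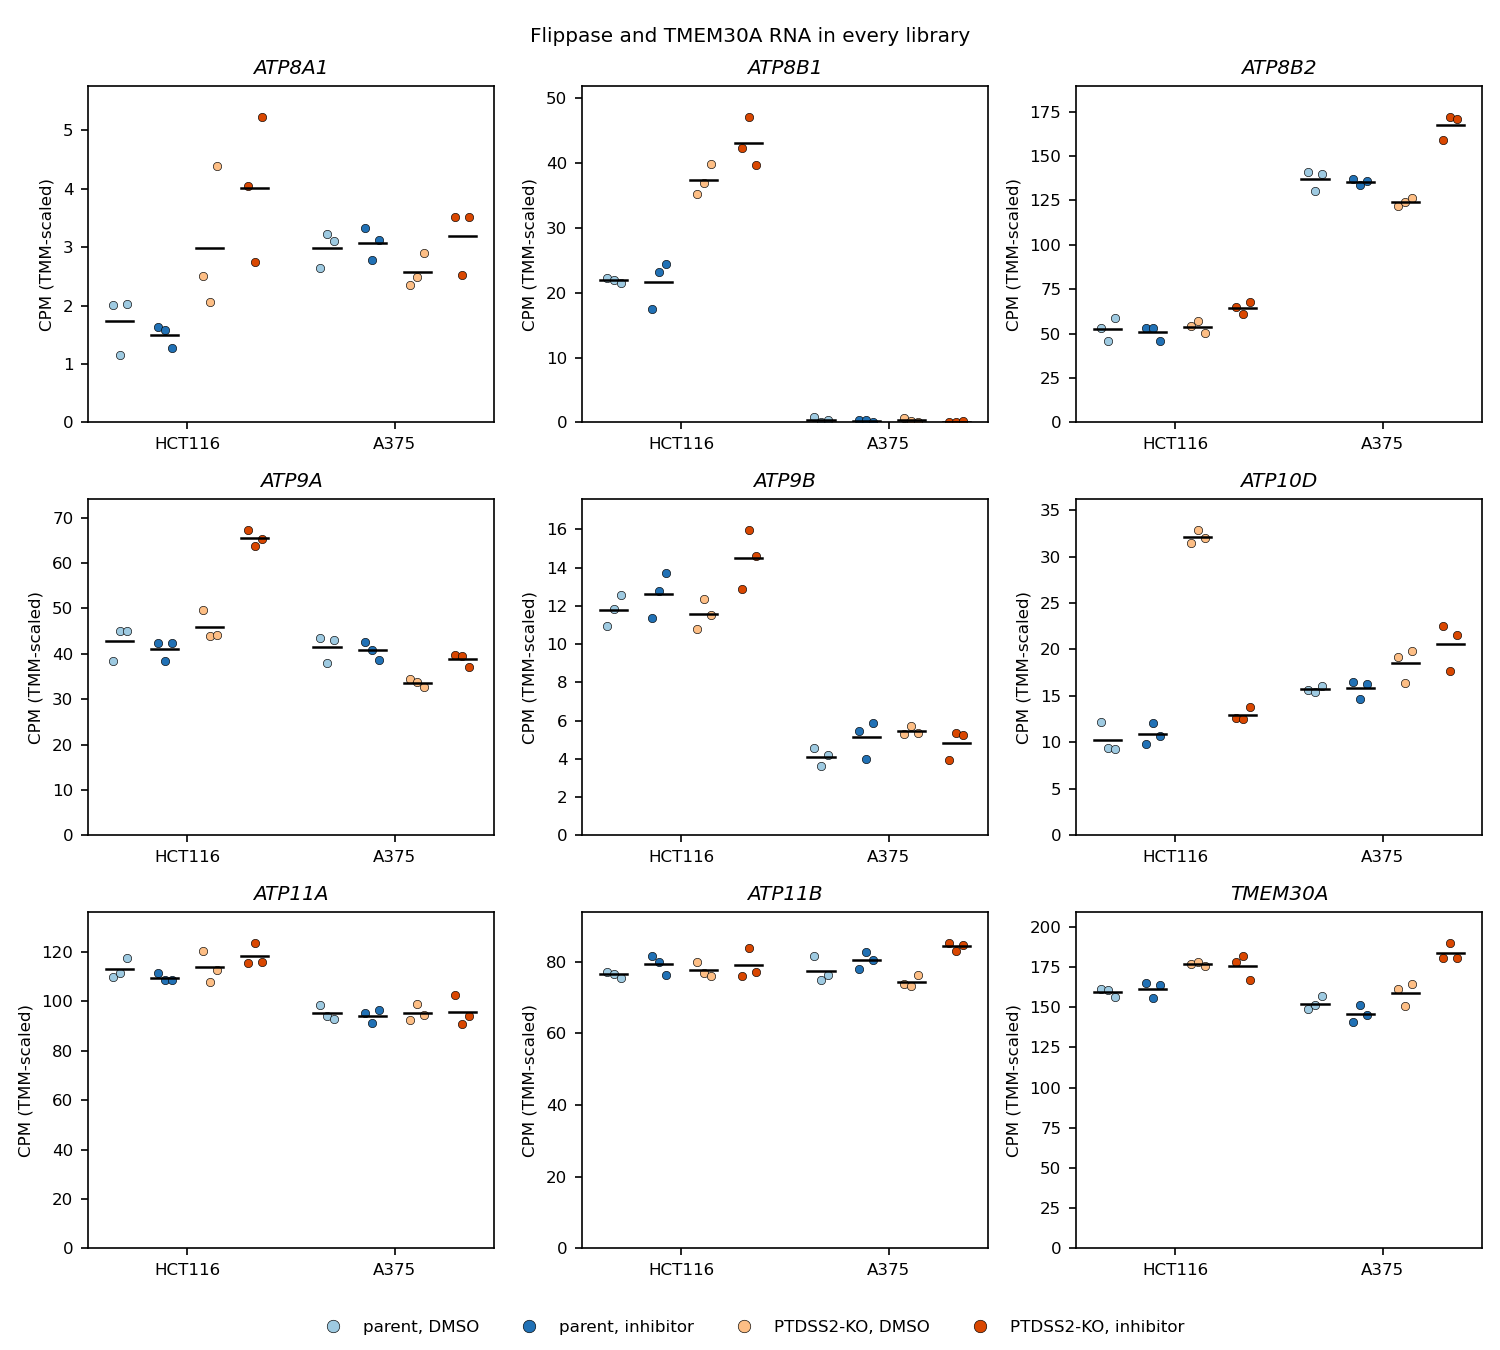
CPM of each member in all 24 libraries, by line, genotype and treatment, with a bar for the mean of each group of 3 and the axis of each panel starting at 0. ATP10D in the HCT116 clone in DMSO, at 31.5 to 32.9 CPM, stands above every other HCT116 library.

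ATP8B2, a flippase of phosphatidylcholine with a promoter window printed above, rose in both clones with the inhibitor. In HCT116 the clone stood at 54.5, 57.0 and 50.3 CPM in DMSO and 64.7, 61.2 and 67.9 with the inhibitor, and the parent at 53.1, 45.6 and 58.6 in DMSO and 53.1, 53.2 and 45.9 with it. The clone with inhibitor lay above all other HCT116 libraries, and its rise was 0.26 ± 0.07 (adjusted p = 0.004199). In A375 the parent stood at 141, 130 and 140 CPM in DMSO and 137, 134 and 136 with the inhibitor, and the clone at 122, 124 and 126 in DMSO and 159, 172 and 171 with it. The clone was lowest of the 4 A375 groups in DMSO and highest with the inhibitor.

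The A375 clone was below its parent in DMSO by -0.15 ± 0.04 for ATP8B2 (adjusted p = 0.009521), a call lost without replicate 1 of the parent (0.06787), replicate 3 of the parent (0.05901) or replicate 1 of the clone (0.05636). With the inhibitor it rose by 0.43 ± 0.04 (adjusted p = 4.129e-14), and by 0.45 ± 0.06 more than the parent (adjusted p = 3.154e-09). In HCT116 that genotype difference was 0.30 ± 0.10 (adjusted p = 0.02573), and it did not pass with limma-voom (adjusted p = 0.05102) or DESeq2 (0.06967), nor in 6 of 12 fits without 1 library. The ATP8B2 responses of the clones differed by 0.18 ± 0.08 between A375 and HCT116, which did not pass (adjusted p = 0.1156, 95% interval 0.01 to 0.35).

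ATP8B1 had enough counts for a test within a line in HCT116 only. Its CPM were 22.3, 21.9 and 21.5 in the parent in DMSO, 17.4, 23.2 and 24.5 with the inhibitor, 35.3, 36.9 and 39.9 in the clone in DMSO, and 42.4, 47.2 and 39.8 with the inhibitor. Each clone library was above each parent library. The clone exceeded the parent by 0.77 ± 0.09 in DMSO (adjusted p = 1.022e-10) and by 1.00 ± 0.09 with the inhibitor (adjusted p = 1.141e-14). The rise with the inhibitor in the clone was 0.21 ± 0.08 (adjusted p = 0.04039), with 1 library inside the range of the DMSO group, and it was lost in 8 of 13 other fits, among them limma-voom (0.0633), DESeq2 (0.1289) and the fit without replicate 2 with inhibitor (0.2623).

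ATP11A and ATP11B changed little with genotype or inhibitor. ATP11A, cleaved by caspases in dying cells, ranged from 108 to 124 CPM over the 12 HCT116 libraries and from 90.9 to 102 over the 12 A375 libraries. It passed in none of the inhibitor or clone comparisons (the nearest was the HCT116 clone against its parent with inhibitor, 0.11 ± 0.05, adjusted p = 0.05166, and 0.04107 in a fit of those 2 groups alone), with the inhibitor changing the HCT116 clone by 0.06 ± 0.05 and the A375 clone by 0.01 ± 0.05. ATP11B stood in the A375 clone at 73.8, 73.2 and 76.2 CPM in DMSO and at 85.3, 82.9 and 84.6 with the inhibitor, groups that did not overlap. That rise was 0.18 ± 0.05 (adjusted p = 0.001852), whereas in the HCT116 clone the change was 0.03 ± 0.05 (95% interval -0.10 to 0.15). The difference between the clones, 0.16 ± 0.07, did not pass (adjusted p = 0.1175).

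ATP8A1 had only 10 to 40 counts in an HCT116 library. Its CPM were 2.01, 1.16 and 2.02 in the parent in DMSO, 1.62, 1.59 and 1.27 with the inhibitor, 2.51, 2.06 and 4.39 in the clone in DMSO, and 4.04, 2.74 and 5.23 with the inhibitor. The clone libraries all lay above the parent libraries. The clone difference was 0.79 ± 0.30 in DMSO (adjusted p = 0.05287) and 1.40 ± 0.31 with the inhibitor (adjusted p = 0.0001345). The DMSO difference passed in 4 of 13 other fits: no filter, a replicate block, all 24 libraries and without replicate 2 of the clone. Over the 13 it ran from 0.40 to 0.99, with adjusted p from 0.02215 to 0.4783. In A375, at 2.35 to 3.51 CPM, no inhibitor or clone comparison passed.

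ATP9A and ATP9B are flippases of endosomes and the trans-Golgi that work without TMEM30A. ATP9A in HCT116 stood at 38.5, 45.0 and 45.1 CPM in the parent in DMSO, 42.3, 38.4 and 42.3 with the inhibitor, 49.6, 43.9 and 44.1 in the clone in DMSO, and 67.4, 63.8 and 65.3 with the inhibitor. Only the last group lay above the others. Its rise was 0.52 ± 0.07 (1.43-fold, adjusted p = 1.65e-09), exceeding the parent's effect by 0.58 ± 0.10 (adjusted p = 2.107e-06). In A375 the values were 43.4, 37.9 and 43.0 CPM in the parent in DMSO, 42.7, 40.8 and 38.7 with the inhibitor, 34.4, 33.7 and 32.7 in the clone in DMSO, and 39.8, 39.6 and 37.1 with the inhibitor. There the clone in DMSO was the low group.

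The A375 clone was below its parent in DMSO by -0.30 ± 0.07 for ATP9A (adjusted p = 0.001211), and with the inhibitor in both the difference was -0.07 ± 0.07 (adjusted p = 0.4314). The rise in the clone was 0.21 ± 0.07 (adjusted p = 0.01472), lost with DESeq2 (0.05443) and without replicate 3 in DMSO (0.06601) or replicate 1 with the inhibitor (0.05438). It exceeded the parent's effect by 0.24 ± 0.10, which did not pass (adjusted p = 0.06562). The ATP9A response was smaller in the A375 clone than in the HCT116 clone, by -0.30 ± 0.10 (adjusted p = 0.01507; 0.05487 without replicate 3 of the A375 clone with inhibitor).

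ATP9B stood in the HCT116 clone at 10.8, 12.4 and 11.5 CPM in DMSO and at 12.9, 16 and 14.6 with the inhibitor, which did not overlap. The rise was 0.32 ± 0.13 (adjusted p = 0.04317) and was lost in 8 of 13 other fits, among them limma-voom (0.05109), DESeq2 (0.1218) and the fit without replicate 2 with the inhibitor (0.2073). In A375, at 3.61 to 5.87 CPM, the change in the clone was -0.17 ± 0.19 and no inhibitor or clone comparison passed. In the RefSeq annotation other genes overlap the loci of all 9 members, by the position of the whole locus. Overlap of exons was not examined. The kit does not mark strand, so where exons overlap, reads of antisense RNAs such as ATP8B1-AS1 and ATP11A-AS1 cannot be told apart from those of the member.

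Of the family's remaining genes, 7 were listed. ATP10A and ATP10B, relatives of ATP10D, and TMEM30B, another CDC50 subunit, had 0 counts in all 12 HCT116 libraries, which allows up to 0.300 to 0.483 CPM in a library (3 counts, counting error only). In the HCT116 clone with the inhibitor, ATP8B3 rose by 0.73 ± 0.16 (adjusted p = 0.0002175), from 7.21, 6.31 and 5.93 CPM in DMSO to 10.9, 8.68 and 12.8, groups that did not overlap. The parent stood at 8.14, 10.0 and 8.41 CPM in DMSO and 6.28, 6.12 and 7.75 with the inhibitor. The clone with the inhibitor thus overlapped the parent in DMSO, and the clone in DMSO lay below it. Of all genes, 17.1% rose in that clone and 37.1% changed in all. In the A375 clone 5 were tested and 3 rose: ATP8A2 by 0.75 ± 0.21, ATP10A by 0.52 ± 0.12 and ATP10B by 0.65 ± 0.27 (adjusted p = 0.04856), where 18.7% of all genes rose and 37.5% changed in all. ATP10A stood at 13.1, 13.5 and 11.7 CPM in the A375 parent in DMSO, 8.80, 7.96 and 8.68 in the clone in DMSO, and 11.7, 12.7 and 12.2 in the clone with the inhibitor.

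The fixed list of flippase partners held 8 genes that direct or assist flippases in the Golgi and endosomes, all tested. In the HCT116 clone with the inhibitor 1 rose, MON2 (0.24 ± 0.06, adjusted p = 0.001718), and 2 fell, EHD1 (-0.32 ± 0.07, adjusted p = 0.0001021) and SNX3 (-0.14 ± 0.04, adjusted p = 0.00978). In the A375 clone 3 rose, ARL1 (0.33 ± 0.05), ARFGEF2 (0.25 ± 0.04) and MON2 (0.25 ± 0.05), and EHD1 fell (-0.14 ± 0.04, adjusted p = 0.005754). Calls in 3 and 4 of 8 partners are near the shares of all genes called, 37.1% in the HCT116 clone (17.1% up, 20.1% down) and 37.5% in the A375 clone (18.7% up, 18.8% down). The medians were 0.05 in HCT116 and 0.24 in A375, beside 0.00 and 0.01 over all genes.

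A list of 12 genes acting in the opposite sense, scramblases with their partners and the caspases that cut flippases was also counted. In the HCT116 clone 5 of 10 tested rose and 2 fell; among the rises were PLSCR1 (0.36 ± 0.08, adjusted p = 0.0001801), TMEM41B (0.27 ± 0.06, adjusted p = 0.0003094) and BSG (0.15 ± 0.03, adjusted p = 0.0001199). In the A375 clone 1 of 9 rose, TMEM41B, an endoplasmic reticulum scramblase (0.21 ± 0.08, adjusted p = 0.03698), and none fell. Of all genes, 17.1% rose and 20.1% fell in the HCT116 clone, and 18.7% rose and 18.8% fell in the A375 clone. The response itself differed between the clones for 3 of 10 of these genes, 1 upward and 2 downward in A375, where 19.7% of all genes differed. Of those 10, only 9 had enough counts for a test within A375.

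By the rule for likeness, each member was compared with 11659 genes tested in both lines by Pearson's r of log2 CPM over the 24 libraries, after each line was centred on its own mean; these values describe shared differences between the 8 groups and carry no p. The nearest genes to TMEM30A were YIPF6 (r = 0.913), TAPBP (0.910) and NQO1 (0.904). ATP10D lay nearest to ALDH1A3 (0.962, with 0.976 within HCT116 and 0.769 within A375), ATP8B2 to TTC13 (0.926) and ATP9A to ZNF385A (0.923). The nearest gene was less alike for ATP8A1 (ADSS1, 0.871), ATP11A (TMEM94, 0.813), ATP11B (FAM200A, 0.776) and ATP9B (SP2, 0.754), and ATP8B1 was not tested in both lines. Some of these r were unlike within HCT116 and A375: 0.935 and 0.586 for ADSS1, 0.632 and 0.901 for FAM200A, and 0.745 and 0.972 for TAPBP. Others were close, such as 0.927 and 0.912 for YIPF6 and 0.714 and 0.777 for SP2.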

How the data were processed

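RNA abundance was measured by poly(A) RNA sequencing with an NEBNext Ultra RNA kit, per the labels' protocols. The submitters' processing notes name STAR 2.4.2a (an aligner), RSEM 1.2.23 (a quantifier) and the build hg19. Strand setting, annotation release and filters: not given in the sources used here. Expected counts, as deposited by the authors, are RSEM's estimates of reads per gene under the file headers' names. The deposited TPM values are scaled by RSEM for gene length and library size, per the file headers, and served to compare genes. The deposited FPKM values, also length-scaled per the file headers, were not used.

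Expected counts were rounded, scaled with TMM factors and filtered with edgeR's default filter (minimum count 10, minimum total 15). CPM were computed from the counts and TMM-scaled library sizes, within each line; differences between lines come from the fit of both. Each line was fitted over its 12 libraries, and the comparisons between lines over all 24, with edgeR 4.0.16 in R 4.3.3 (robust quasi-likelihood F test, two-sided, Benjamini-Hochberg over all genes tested). A gene with adjusted p under 0.05 is said to differ, rise or fall. SEs are |log2 fold change| over the root of F. Alternatives were DESeq2 1.42.0 and its size factors, limma-voom (limma 3.58.1), no filter, a replicate block, other sets of libraries and leaving out each replicate. Fits were tested on simulated data with known changes in the clone with inhibitor. For the inhibitor in the clone, 50% of 1.25-fold changes were recovered in HCT116 and 52% in A375. For the genotype difference it was 38% and 28%, so changes of that size can fail to pass. Unchanged genes made 10 of 161 calls in the HCT116 clone and 5 of 156 in the A375 clone. Results for some genes of the fixed lists are not reported here.

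The labels do not say whether replicates were separate cultures, and p-values therefore reflect the spread among these libraries alone, which may be technical. All 9 members entered every comparison that their counts allowed, though not every value is printed, and the genes of the other lists are as given. Members, lists and tests were chosen with earlier results of these data known. Promoter windows are RefSeq's on GRCh38.p14 and were matched by symbol for 6 of 9 members; ATP8B1, ATP11B and TMEM30A had none, and coordinates of the hg19 counts were not used.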

Additional observations from a re-analysis of the deposited data

Results flagged for a closer look

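The inhibitor's effect in the clone differed from that in the parent, by a test of the difference itself (edgeR quasi-likelihood test, log2 scale), for 3 members in HCT116 and 2 in A375. In HCT116 the difference was 0.30 for ATP8B2, 0.58 for ATP9A and -1.39 for ATP10D. In A375 it was 0.45 for ATP8B2 and 0.27 for TMEM30A. The response of the A375 clone differed from that of the HCT116 clone by -0.30 for ATP9A, 1.46 for ATP10D and 0.22 for TMEM30A.

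For ATP10D both differences pass through the HCT116 clone in DMSO, whose 3 libraries stood at 31.5, 32.9 and 32.0 CPM. The comparison of clone and parent with the inhibitor gave 0.25 ± 0.13 (edgeR quasi-likelihood test, adjusted p = 0.09614). Those 3 libraries enter that comparison only through the fit shared by the line's libraries, not through its group means.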

How the results depend on the processing

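Of 103 values of the members, 36 were called, 28 of them in every alternative, and 8 lost the call in at least 1. Of the 67 values not called, 7 gained a call. The 36 and the 28 include ATP8B1 between the parent lines, whose call is not a test of the difference, since the gene passed the filter only through HCT116. No called value changed sign; of 1459 alternative values, 59 had another sign than the value they replaced, all where neither was called. The count of members called in the HCT116 clone with inhibitor was 3, not 5, with no filter, limma-voom, DESeq2 and all 24 libraries, since ATP8B1 and ATP9B were lost, and 3 to 5 when 1 library was left out (3 without replicate 1 in DMSO or replicate 2 with the inhibitor). The count in the A375 clone in DMSO was 1 to 2 when 1 library was left out (1 without replicate 1 or 3 of the parent or replicate 1 of the clone, where ATP8B2 was lost). No sign of pairing by replicate number was seen, which cannot show that samples were unpaired. Of same-numbered pairs, 1 of 18 correlated over 0.1 in each line (medians 0.012 in HCT116 and 0.002 in A375). Among pairs with different numbers it was 0 of 36 in HCT116 and 1 of 36 in A375 (medians -0.007 and -0.019). With a replicate block the counts of members called were 5 in the HCT116 clone with inhibitor, 4 in the HCT116 clone in DMSO (ATP8A1 added, 0.77 ± 0.29, adjusted p = 0.04593) and 4 in the A375 clone with inhibitor. Over all genes, the calls fell from 2804 to 1798 in the HCT116 clone in DMSO and from 2196 to 1371 in the A375 clone in DMSO at the lowest alternative; the inhibitor gave 0 to 4 calls in the HCT116 parent and 9 to 20, against 14, in the A375 parent. ATP8B1 in A375 (0 to 7 counts) and ATP8A1 in HCT116 (10 to 40) are limited by depth.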
